A study of Homo sapiens with 6 samples.

Results

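The Kruppel-like factors (KLFs) are transcription factors that bind GC-rich and CACCC-type DNA through zinc fingers at the end of the protein. Several of them are switched on within a short time of a growth factor, cytokine, shear or injury signal, and others are made at a steady level in most cells or follow hormones. In liver, KLF6 is known for its rise after injury and KLF15 for its part in amino acid use during fasting. The 10 KLF genes described here were taken by symbol from the deposited tables, KLF2, KLF4, KLF5, KLF6, KLF9, KLF10, KLF11, KLF13, KLF15 and KLF16, out of 26389 genes in the count table, 15 of which are KLF genes. All 10 had reads in every library and had FPKM values. All 10 passed the filter on low counts and were tested, KLF2 only through the knockdown group.

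RNA was sequenced from HepG2, a human hepatocellular carcinoma cell line grown in medium with serum. Cells of the control group (shCtrl, 3 libraries) received a control short hairpin RNA plasmid. Cells of the knockdown group (shTCTP, 3 libraries) received a plasmid whose hairpin targets TCTP, the translationally controlled tumour protein encoded by TPT1, and both groups were transfected with a lipid reagent. The labels give a harvest at 48 h for quantitative PCR and no separate time for sequencing, and they do not say which promoter drives the hairpins or whether the libraries of a group are separate cultures. The p-values below rest on how far these samples vary, and that variation may be technical only.

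Library totals ran from 25427614 to 30486409 reads. Knockdown library 3 had the fewest reads and its profile over tested genes was the least like the rest (mean correlation 0.977, against 0.986 to 0.987 for each of the others), so the members' fold changes are also given without it. TPT1 stood at 2249 to 2575 CPM (counts relative to library size after TMM scaling) in control libraries and at 1559 to 2032 CPM in knockdown libraries. Its level was 75.9% of control by the edgeR quasi-likelihood fit, with an unadjusted p of 0.034 and an adjusted p = 0.396, and an exact permutation test, two-sided, reached p = 0.1, which is the lowest possible for 3 against 3. The edgeR unadjusted p was 0.075, 0.059 or 0.061 without control library 1, 2 or 3, and 0.103 or 0.097 without knockdown library 2 or 3. All 10 hepatocyte-type markers checked were present, with a summed level of 6675 to 7237 FPKM in control and 5465 to 6396 FPKM in knockdown libraries. Those ranges do not overlap, and the part of that difference in the KLF results was not tested. Markers of blood, endothelial, fibroblast and squamous cells summed to at most 0.84 FPKM, with no row for PTPRC, COL1A2 or DCN in the count table.

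The sequences just upstream of the start sites were searched for short known motifs. RefSeq windows (GRCh38.p14) of 250 bases before the start site were matched for 9 of the 10 members, 11 windows in all, and KLF10 was not among them. The windows printed here are those of KLF6 and KLF4, which rose, KLF2 and KLF11, early-response genes that did not pass the test, and KLF16, the most abundant member, which did not pass either. Bases from the first one that GENCODE release 29 places in an exon of the gene are left off, which removes 72 bases of the KLF6 window, 46 of KLF11 and 9 of KLF2. The KLF4 and KLF11 windows printed lie within the gene spans of that release. Capitals mark, on either strand, the GC box with the letters GGGCGG, the box named for its letters CCAAT, the cAMP response element TGACGTCA and the MEF2 site.
KLF6, chr10:3785282-3785459, minus strand: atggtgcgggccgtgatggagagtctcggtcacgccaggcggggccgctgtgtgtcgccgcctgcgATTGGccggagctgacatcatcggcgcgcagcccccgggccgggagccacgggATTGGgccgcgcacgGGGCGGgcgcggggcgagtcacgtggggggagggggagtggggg
KLF4, chr9:107489770-107490019, minus strand: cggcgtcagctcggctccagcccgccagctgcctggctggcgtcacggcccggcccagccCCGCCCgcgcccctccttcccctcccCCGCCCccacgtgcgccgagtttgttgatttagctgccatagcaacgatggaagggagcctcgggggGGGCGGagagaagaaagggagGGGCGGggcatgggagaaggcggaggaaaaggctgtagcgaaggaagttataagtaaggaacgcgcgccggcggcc
KLF2, chr19:16324576-16324816, plus strand: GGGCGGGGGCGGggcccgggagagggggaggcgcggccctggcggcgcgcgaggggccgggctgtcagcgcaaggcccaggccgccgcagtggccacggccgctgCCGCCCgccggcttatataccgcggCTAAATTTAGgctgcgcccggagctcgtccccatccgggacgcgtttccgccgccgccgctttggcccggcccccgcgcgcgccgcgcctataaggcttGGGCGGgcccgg
KLF11, chr2:10043971-10044174, plus strand: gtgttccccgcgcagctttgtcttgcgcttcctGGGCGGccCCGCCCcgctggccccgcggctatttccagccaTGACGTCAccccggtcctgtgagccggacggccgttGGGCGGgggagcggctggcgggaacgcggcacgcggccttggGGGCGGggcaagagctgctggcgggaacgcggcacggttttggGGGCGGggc
KLF16, chr19:1863580-1863829, minus strand: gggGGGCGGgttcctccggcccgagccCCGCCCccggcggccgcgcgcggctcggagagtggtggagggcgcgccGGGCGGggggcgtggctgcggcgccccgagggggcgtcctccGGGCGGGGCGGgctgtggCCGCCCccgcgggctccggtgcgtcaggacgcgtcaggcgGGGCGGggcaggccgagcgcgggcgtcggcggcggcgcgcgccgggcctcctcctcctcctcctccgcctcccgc

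GC boxes, the letters to which SP and KLF proteins themselves bind, were found in 9 of the 11 full windows, against 42.6% of all 35116 windows of that length. The CACCC box (CACCC, either strand), the other kind of sequence that KLF proteins bind, was found in 4 of the 11, both KLF5 windows, the second KLF11 window and that of KLF13, against 54.7% of all windows. The full windows keep the bases from the first exonic one on. Those are all 250 bases of the first KLF11 window and 213 of the second KLF5 window. The GC boxes of both these windows, and the CACCC boxes of the second KLF5 window, lie in those bases. Both kinds of member had GC boxes: KLF4 and KLF2 had 4 each and KLF6 had 2, while KLF16 had 7, KLF15 had 6 and KLF13 had 3. The windows without a GC box were that of KLF9 and the upstream window of KLF5, at 32.4% and 40.8% GC. They were the least GC-rich of the 11, and the median of all windows was 58%. The 9 windows with a GC box ran from 69.2% (KLF4) to 86.4% GC (KLF16). The part of base composition in the matches was not tested. A MEF2 site, read by the factors through which shear and the kinase ERK5 act on KLF2, was found once, in the KLF2 window 120 to 111 bases before the start site, and 2.80% of all windows hold one. A cAMP response element was found once, 176 to 169 bases before the second KLF11 start site, against 1.65% of all windows. No window held a CArG box, the site of serum response factor, or an AP-1 site (TGACTCA), which 1.16% and 4.20% of all windows hold. A match of letters is a description of the window only.

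The members differed widely in level. On the FPKM scale, which is per length and so allows comparison between genes, KLF16 was highest in control cells at 18.1 ± 2.14 FPKM (SD, n = 3), followed by KLF6 at 7.51 ± 0.803, KLF10 at 2.67 ± 0.865, KLF13 at 2.58 ± 0.535 and KLF15 at 2.02 ± 0.251. KLF4, KLF11, KLF5, KLF9 and KLF2 followed at 0.59, 0.49, 0.47, 0.283 and 0.143 FPKM. In this order the libraries of KLF10 and KLF13 overlapped, and from KLF4 down every gene overlapped the next. KLF16, KLF6, KLF10 and KLF13 remained the 4 highest by mean in knockdown cells. There KLF6, at 16.9 ± 4.21 FPKM (SD, n = 3), overlapped KLF16 at 19.8 ± 4.62, and KLF10, at 5.94 ± 1.06, no longer overlapped KLF13 at 2.94 ± 1.05.

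**Figure D1:**
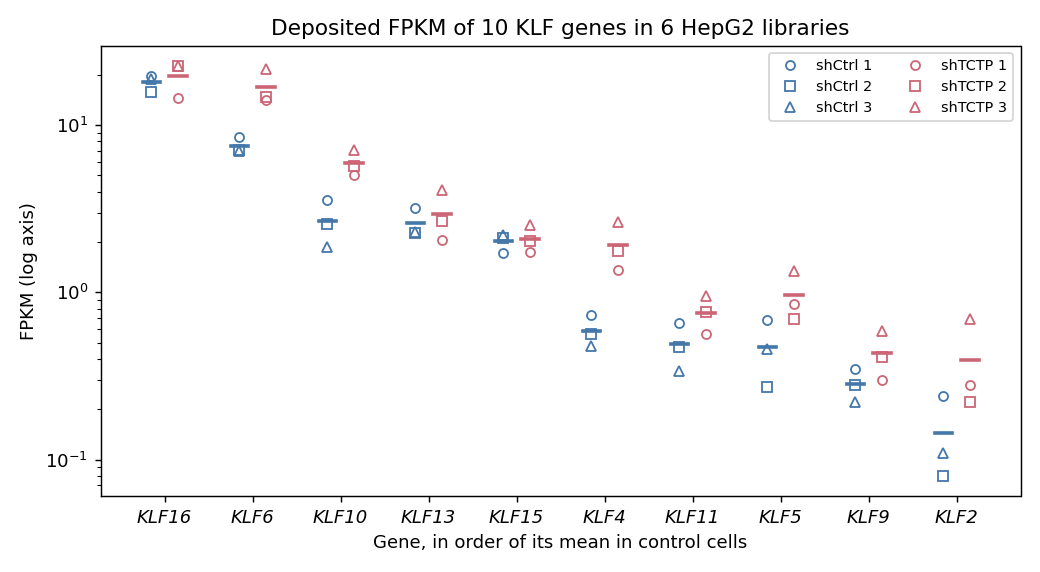
Deposited FPKM values (log axis) of the 10 KLF genes in each of the 3 control (blue) and 3 knockdown (red) libraries, ordered by the control mean, with short bars for group means and symbols for the library number. KLF6, KLF10 and KLF4 show the knockdown libraries above all control libraries, while the groups of KLF16, KLF13, KLF15, KLF11, KLF9 and KLF2 overlap.

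The members differed in the comparison of knockdown with control cells. KLF6, KLF4 and KLF10 rose after the TCTP hairpin, by 2.07-fold, 2.97-fold and 2.07-fold, and none of the 10 members fell. KLF16, KLF13 and KLF15 had fold estimates between 0.954 and 1.04 and did not pass. KLF2, KLF5, KLF11 and KLF9 had fold estimates of 2.51, 1.86, 1.43 and 1.41 and did not pass either. The 3 members that rose compare with 1.26% of the 14197 tested genes called higher at an adjusted p under 0.05 by edgeR's quasi-likelihood test (179 genes), 0.148% called lower (21 genes) and 1.41% called in either direction. In bulk samples such as these, a change in how many cells express a gene and a change in RNA per cell cannot be told apart. The 10 members had a median log2 fold change of 0.71, against -0.0023 over all tested genes. The number of all genes called in either direction was 90, 79 or 101 without control library 1, 2 or 3, 89 without knockdown library 2 and 343 without knockdown library 3, while KLF4, KLF6 and KLF10 were the members called in each of these fits.

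KLF6, a factor induced in liver injury and known for its action on TGF-beta and collagen genes, is encoded on chromosome 10 (ENSG00000067082.14, GRCh38, 3775996 to 3785281, minus strand). It had 51.7, 46.0 and 47.8 CPM in control libraries and 91.7, 93.0 and 116 CPM in knockdown libraries. The lowest knockdown library was 1.77 times the highest control library, and the control libraries differed little, with a coefficient of variation of 6.01%. The log2 fold change was 1.05 (SE 0.14, 95% interval 0.76 to 1.34, edgeR adjusted p = 0.00036). Without knockdown library 3, the highest of the 6, it was 0.94, and with any 1 library left out the edgeR adjusted p was at most 0.0059.

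KLF4, a factor that restrains growth in epithelia and is known as a reprogramming factor, is encoded on chromosome 9 (ENSG00000136826.14, GRCh38, 107484852 to 107490482, minus strand). Its reads numbered 67, 52 and 45 under control and 128, 162 and 204 under the TCTP hairpin. On the CPM scale these were 2.20, 1.80 and 1.62 against 4.38, 5.45 and 6.89, so that the groups stood well apart at a low level. The log2 fold change of 1.57 was the largest among the members (SE 0.24, 95% interval 1.07 to 2.07, edgeR adjusted p = 0.0015). It was 1.40 without knockdown library 3, and with any 1 library left out the edgeR adjusted p was at most 0.0187.

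KLF10, a TGF-beta-inducible early gene that also follows glucose and the clock in liver, is encoded on chromosome 8 (ENSG00000155090.14, GRCh38, 102648779 to 102655902, minus strand). It had 14.7, 11.2 and 8.43 CPM in control libraries and 22.0, 23.8 and 25.5 CPM in knockdown libraries. Here the control libraries were the more variable, with a coefficient of variation of 27.4% against 7.45% in knockdown, and control library 1 came closest to the knockdown values. The log2 fold change was 1.05 (SE 0.18, 95% interval 0.67 to 1.44, edgeR adjusted p = 0.0054). It ranged from 0.87 without control library 3 to 1.27 without control library 1, with an edgeR adjusted p of at most 0.0416.

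KLF2, KLF5 and KLF11 make up the rest of the early-response genes, and none passed the threshold. KLF2 (ENSG00000127528.5, chromosome 19, 16324817 to 16327874, plus strand), induced by shear in endothelium and by immune signals, drew only 15, 5 and 7 reads under control and 18, 14 and 37 under the TCTP hairpin. That is 0.492, 0.173 and 0.251 CPM against 0.617, 0.471 and 1.25 CPM, and the groups overlapped, since knockdown library 2 lay below control library 1. Its log2 fold change was 1.33 with a wide 95% interval of 0.27 to 2.39 (edgeR adjusted p = 0.293), and 0.82 without knockdown library 3. Its libraries varied widely within both groups, with coefficients of variation of 54.3% and 53.1%. KLF2 passed the filter on low counts only through the knockdown group, and a filter of at least 1 CPM in 3 libraries dropped it.

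KLF5 (ENSG00000102554.13, chromosome 13, 73054976 to 73077542, plus strand), a growth-promoting factor of epithelia and smooth muscle, had 2.62, 1.11 and 1.97 CPM in control and 3.46, 2.72 and 4.49 CPM in knockdown libraries. These do not overlap, but the lowest knockdown library was only 1.04 times the highest control library (log2 fold change 0.90, SE 0.29, edgeR adjusted p = 0.193, and 0.71 without knockdown library 3). KLF11 (ENSG00000172059.10, chromosome 2, 10042849 to 10054836, plus strand), the close relative of KLF10, had 2.92, 2.19 and 1.65 CPM in control and 2.60, 3.43 and 3.65 CPM in knockdown libraries. Knockdown library 1 lay below control library 1, and the log2 fold change of 0.52 (95% interval -0.02 to 1.05, edgeR adjusted p = 0.472) did not pass and was 0.43 without knockdown library 3.

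The remaining 4 members are known as basal or hormone-responsive genes. KLF16 (ENSG00000129911.8, chromosome 19, 1852399 to 1863568, minus strand), a repressor found in many tissues, had 59.7, 50.6 and 63.6 CPM in control and 46.4, 69.6 and 59.4 CPM in knockdown libraries. Both its lowest and its highest value were knockdown libraries, and the log2 fold change was 0.01 with a 95% interval of -0.31 to 0.34, and 0.0095 without knockdown library 3. KLF13 (ENSG00000169926.9, chromosome 15, 31326855 to 31435665, plus strand), known for its action on the chemokine gene CCL5 in T cells, had 22.6, 16.9 and 17.98 CPM in control and 15.3, 19.2 and 25.3 CPM in knockdown libraries, with a log2 fold change of 0.06 (95% interval -0.33 to 0.44) that was -0.14 without knockdown library 3. KLF15 (ENSG00000163884.3, chromosome 3, 126342635 to 126357442, minus strand), which follows glucocorticoids and fasting, had 4.56, 5.97 and 6.42 CPM in control and 4.86, 5.48 and 5.81 CPM in knockdown libraries, with a log2 fold change of -0.07 (95% interval -0.48 to 0.35), or -0.12 without knockdown library 3. The intervals of these 3 genes leave out the log2 fold change of 1 or more seen for KLF4, KLF6 and KLF10, and the signs of all 3 turned under at least 1 other setting.

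KLF9 (ENSG00000119138.4, chromosome 9, 70384597 to 70414624, minus strand) is induced by thyroid hormone and glucocorticoids. Its fold estimate lay above those of KLF16, KLF13 and KLF15 and just below that of the early-response gene KLF11. KLF9 had 1.84, 1.60 and 1.29 CPM in control and 1.71, 2.22 and 2.74 CPM in knockdown libraries. Knockdown library 1 lay below control library 1, and the log2 fold change was 0.49 (95% interval -0.08 to 1.06, edgeR adjusted p = 0.524), or 0.33 without knockdown library 3.

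**Figure D2:**
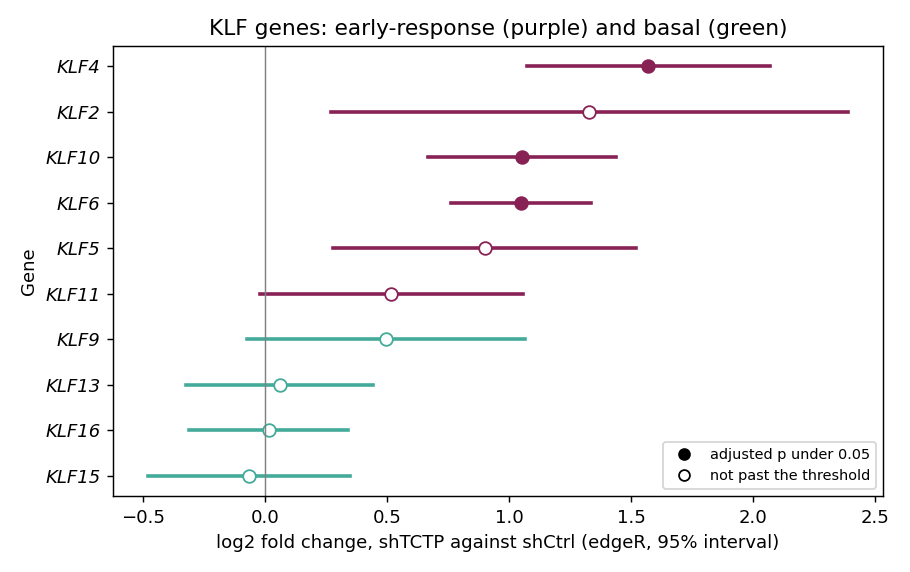
Log2 fold change of knockdown against control for each KLF gene (points) with its 95% interval (lines) from the edgeR fit, with early-response genes in purple, basal or hormone-responsive genes in green and filled points for an adjusted p under 0.05. KLF4, KLF10 and KLF6 are filled and lie at 1.05 or above, and the intervals of KLF11 and all 4 green genes cross 0.

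Seen as groups, the 6 early-response members had log2 fold changes of 0.52 to 1.57 with a median of 1.05, and 3 rose. The 4 basal or hormone-responsive members ran from -0.07 to 0.49 with a median of 0.04, and 0 passed. Without knockdown library 3 the medians were 0.88 and -0.05. Over all tested genes 1.26% were called higher and 0.148% lower in the main fit. An unadjusted edgeR p under 0.05 was found for 5 of the early-response and 0 of the other members, against 11.1% of all tested genes. KLF2, which passed the low-count filter only through the knockdown group, is among these 5. Knockdown libraries lay wholly above control libraries for 4 early-response members and 0 of the others, against 9.83% of all tested genes, and wholly below them for 0 members of either group, against 7.3%. The grouping was made with earlier results of these data known, so these counts are descriptions, and the difference between the groups of genes was not tested.

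The early-response members, and KLF9 and KLF13 among the others, had their highest value of each group in the same libraries. Knockdown library 3 was the highest of the 6 for all 6 early-response members and for 2 of the 4 others, against 27.4% of all tested genes. Among control libraries, library 1 was the highest for all 6 early-response members and for 2 of the 4 others, and for 6072 of the 14197 tested genes. The median early-response member stood 0.94, 0.78 and 1.28 above the control mean on the log2 CPM scale in knockdown libraries 1, 2 and 3. In control libraries 1, 2 and 3 it stood at 0.40, -0.06 and -0.16. The median basal member stood at -0.25, 0.14 and 0.23 in the knockdown libraries and at 0.14, -0.07 and 0.03 in the control libraries.

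**Figure D3:**
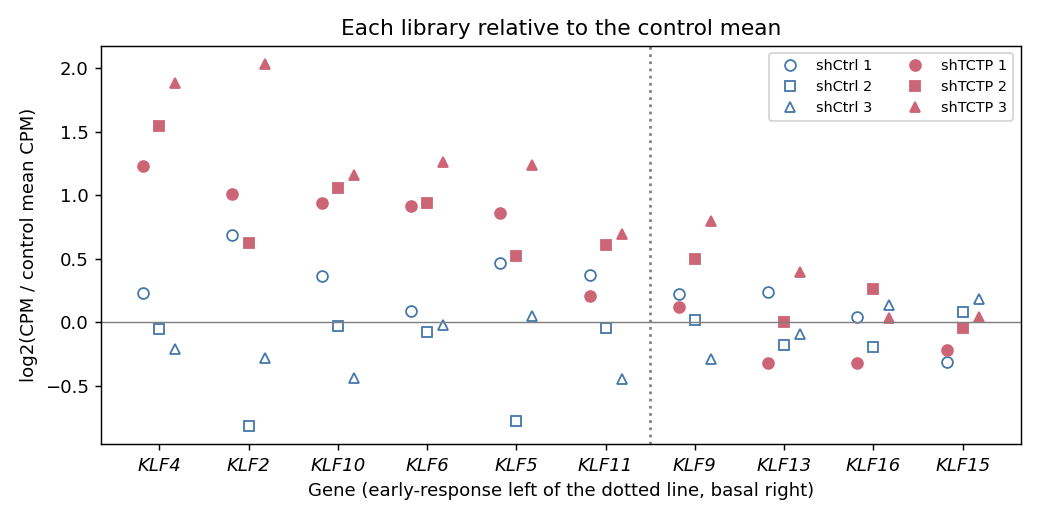
Log2 ratio of each library's CPM to the control mean for each KLF gene, with open blue symbols for control and filled red symbols for knockdown libraries, and early-response genes left of the dotted line. Triangles, the third replicates, include knockdown library 3 as the highest point of all 6 early-response genes, while red and blue mix for KLF13, KLF16 and KLF15. They also overlap for KLF9 and for the early-response genes KLF2 and KLF11.

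The make-up of the summed message of the 10 members shifted with these genes. Summed over the 10 members, the FPKM level was 39.3, 31.3 and 34.0 in control libraries and 40.7, 51.5 and 64.1 in knockdown libraries. The ratio of the group means was 1.49, or 1.32 without knockdown library 3. The sums do not overlap, but knockdown library 1 exceeded control library 1 only slightly, and FPKM values are not scaled by TMM, whose factor was 1.17 for knockdown library 3 and 0.919 to 1.02 for the other libraries. Shares within a library do not depend on such scaling. Early-response members made up 36.4%, 35.1% and 30.3% of the sum in control libraries and 54.5%, 46.5% and 53.7% in knockdown libraries. KLF6 alone went from a share of 21.6 ± 0.904% to 32.4 ± 3.17% (SD, n = 3 each), and KLF16 from 52.0 ± 3.29% to 38.0 ± 4.82%. The FPKM of KLF6 was 0.428, 0.450 and 0.372 times that of KLF16 in control libraries and 0.976, 0.661 and 0.967 times in knockdown libraries. With the FPKM sum of KLF16 and the other basal members at 23.0 ± 2.40 in control and 25.2 ± 5.91 in knockdown cells (SD, n = 3 each), which overlap, the shift in shares lay mostly in the early-response sum, at 11.9 ± 2.16 and 26.9 ± 6.62.

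**Figure D4:**
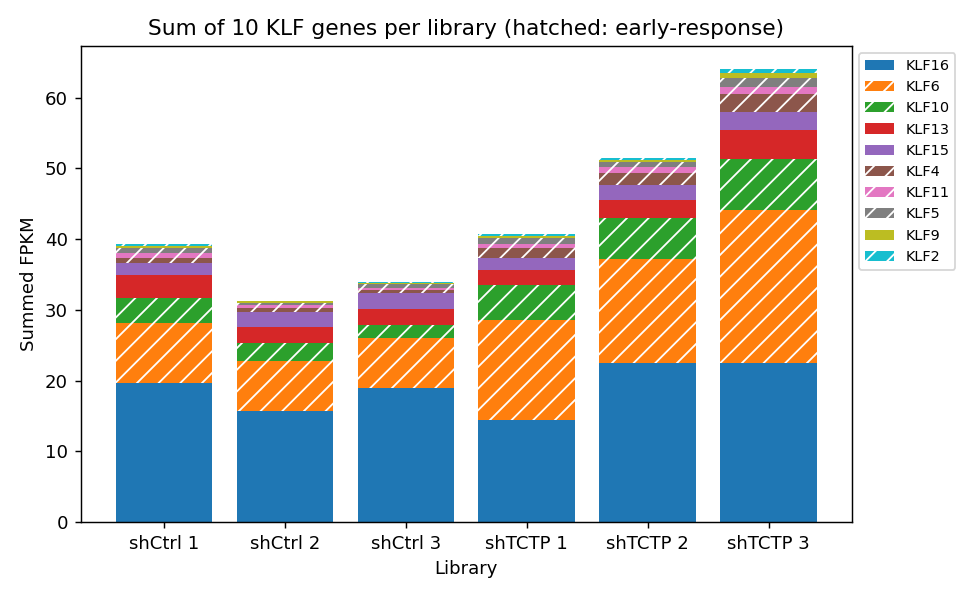
Summed FPKM of the 10 KLF genes in each library, stacked by gene with early-response genes hatched. The hatched part is 30.3% to 36.4% of the bar in control libraries and 46.5% to 54.5% in knockdown libraries.

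None of the other KLF genes passed in the main fit. With them included, the summed KLF level averaged 38.1 FPKM in control and 56.1 FPKM in knockdown libraries, a ratio of 1.47. Of 8 further KLF genes looked for, KLF8, KLF17 and KLF18 had no row in the count table, and KLF1, KLF12 and KLF14 had at most 12 reads in a library and were not tested. KLF7, a factor of neurons and other tissues, had 4.53, 3.47 and 3.34 CPM in control and 5.31, 5.65 and 8.27 CPM in knockdown libraries. These do not overlap, yet its log2 fold change of 0.76 (SE 0.22), or 0.54 without knockdown library 3, did not pass (edgeR adjusted p = 0.125), and it passed only with no filter on low counts (edgeR adjusted p = 0.0488, over a range of up to 0.498 in its alternatives). KLF3, a repressor that works through CTBP proteins, had a log2 fold change of 0.09 (SE 0.18). Its level was 3.29, 2.48 and 2.37 FPKM in control and 2.07, 3.22 and 4.13 FPKM in knockdown libraries. In control cells this overlapped the levels of KLF10 and KLF13. KLF-named pseudogenes, antisense and intronic RNAs were close to empty, with 1 read each for KLF7-IT1 and KLF2P4 and 30 for KLF3-AS1 over all 6 libraries. On the opposite strand, AC104794.4 across KLF11 and AC012615.3 across KLF16 had 1 read each over all libraries, and AC012615.4, also across KLF16, had no row in the count table.

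The SP factors, which share the zinc fingers and the GC box with the KLFs, did not pass for any of 6 tested members. On the log2 scale SP2 differed by 0.52 (SE 0.20), SP6 by 0.72 (SE 0.38) and the median SP gene by 0.18. The 20 tested genes that act upstream of KLF genes had a median log2 fold change of 0.19. Over all tested genes 1.26% were called higher and 0.148% lower, while among these 20 genes 1 rose and 0 fell. It was MKL1, the actin-regulated partner of serum response factor, at 30.1, 25.1 and 25.1 CPM in control and 37.4, 45.0 and 39.0 CPM in knockdown libraries (log2 fold change 0.60, edgeR adjusted p = 0.0429). MKL1 missed the threshold without control library 1, 2 or 3 (edgeR adjusted p = 0.0587, 0.279 and 0.236) or knockdown library 2 (edgeR adjusted p = 0.199), and with limma on log2(FPKM + 1) or log2(FPKM + 0.1) (limma adjusted p = 0.132 and 0.112).

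Genes whose products work with or remove KLF proteins did not pass, where 1.41% of all tested genes were called in either direction. None of 9 tested cofactors was called, with SIN3B at a log2 fold change of 0.37 (SE 0.13) and EP300 at 0.27 (SE 0.18) and a list median of 0.02. EP300 stood at 0.47 without control library 1 or at 0.16 and 0.17 without control library 2 or knockdown library 2. None of 9 tested ubiquitin ligases and deubiquitinases was called, with SMURF1, a ligase reported to act on KLF2, at 0.55 (SE 0.15, edgeR adjusted p = 0.0878), VHL at -0.33 (SE 0.17), or -0.10 without control library 1, and a list median of 0.09. SMURF1 passed with DESeq2 (adjusted p = 0.0339), and its adjusted p ran up to 0.337 over its alternatives. An unadjusted edgeR p under 0.05, which 11.1% of all tested genes had, was found for 1 of 9 cofactors, 1 of 9 ligases and deubiquitinases, 1 of 6 SP genes, 5 of 20 upstream genes and 7 of 25 reported targets. COL1A1, among these 7, had 3 to 37 reads per library and passed the filter on low counts only through the knockdown group.

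Of 25 tested genes described elsewhere as KLF targets 2 rose and 0 fell, against 1.26% and 0.148% of all tested genes. The median log2 fold change of these 25 genes was 0.09, with 14 positive values. TGFB1 and TGFBR1 stand in this list and in that of upstream genes. CYP1A1, a drug-metabolising enzyme whose promoter KLF9 is known to bind, had 45.7, 59.3 and 54.4 CPM in control and 182, 160 and 133 CPM in knockdown libraries (log2 fold change 1.57, SE 0.15, edgeR adjusted p = 2.2e-05). CDKN1A, the cell cycle inhibitor that KLF4 and KLF6 are known to raise, had 116, 139 and 135 CPM in control and 211, 210 and 193 CPM in knockdown libraries (log2 fold change 0.65, edgeR adjusted p = 0.0159). For both genes knockdown library 3 was the lowest of the knockdown libraries, where the early-response KLF genes were highest. That library was also the least like the rest, and the relation of these orders was not tested. CDKN1A missed the threshold without control library 1, 2 or 3 (edgeR adjusted p = 0.0585, 0.0729 and 0.0622) or knockdown library 2 (edgeR adjusted p = 0.14).

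The genes whose profile over the 6 libraries was most like that of each risen member were sought among 8803 other genes of at least 5 CPM on average. Likeness was the root mean square difference of log2 CPM after subtracting each gene's control mean. For KLF6 they were RCAN1, an inhibitor of calcineurin (difference 0.0887), and EPHA2, an ephrin receptor (0.114), where the median gene differed by 0.768. For KLF4 they were MPP1, a membrane scaffold protein (0.214), and EGR1, an immediate early transcription factor (0.218), against a median of 1.12. For KLF10 they were AMOTL2, a junction protein that binds YAP (0.119), and LONRF3 (0.169), against a median of 0.824. LONRF3 averaged 3.96 CPM in control and 7.58 CPM in knockdown libraries, so it reached the minimum of 5 CPM only through the knockdown group. All 6 genes rose, a direction that the choice by profile fixes, with log2 fold changes of 1.06, 1.04, 1.27, 1.42, 1.12 and 0.93 in the order named, and LONRF3 missed the threshold without control library 2 or 3 (edgeR adjusted p = 0.12 and 0.117) or knockdown library 2 (edgeR adjusted p = 0.0612). LONRF3 also missed it with limma on log2(FPKM + 1) or log2(FPKM + 0.1) (limma adjusted p = 0.0636 and 0.0511).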

How the data were processed

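For 6 libraries the authors deposited 1 table of read counts and 1 of FPKM values (per gene length and library size, not TMM-scaled). The submitters' processing notes name bcl2fastq, TopHat2, edgeR and the build GRCh38. Versions, how reads were assigned to genes, annotation and strand use were not given in the sources. Here the deposited counts were filtered with filterByExpr, scaled by TMM and fitted with edgeR 4.0.16 (R 4.3.3, quasi-likelihood, robust, group only), with Benjamini-Hochberg adjustment over 14197 tested genes and a threshold of 0.05. The alternatives used limma 3.58.1, DESeq2 1.42.0, other scalings and filters, gene length and GC corrections (loess span 0.3), the replicate number as a block and each library left out. The fit was tested on simulated counts. The 6 pairs of libraries within a group each differed beyond sampling noise, with chi-square over its degrees of freedom of 13.9 to 85.7. Gene positions come from GENCODE 29 and start-site windows from RefSeq. Counts without molecular identifiers are not independent molecules.

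The members, their grouping as early-response or basal, and all lists were chosen with earlier results of these data known. All 10 members and TPT1 are named. Each list is represented by its called genes, at most 4, or else by its 2 genes of lowest p, and for each risen member the 2 genes of most similar profile. Figures were drawn with matplotlib 3.10.9.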

Additional observations from a re-analysis of the deposited data

How the results depend on the processing

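KLF4, KLF6 and KLF10 were the members past the threshold in the main fit and in all 18 alternatives. The number of all genes past it, 200, was 317 with no filter on low counts and 130 with the replicate block, and ran from 79 to 343 with 1 library left out. TPT1 had a log2 fold change of -0.40 with the replicate block (edgeR unadjusted p = 0.104) and -0.44 with the block and GC correction together (0.102), and from -0.50 to -0.29 with 1 library left out. The difference between the medians of early-response and basal members, 1.01 on the log2 scale, was 0.53 with limma on log2(FPKM + 1), where the pseudocount shrinks genes of low level. Signs turned for genes near 0, and the cause was not tested: KLF13 stood at -0.019 with the length correction, KLF16 at -0.00027 with the replicate block, -0.0011 with the length correction and -0.0023 with DESeq2, and KLF15 at 0.034 and 0.045 with limma on log2(FPKM + 1) and log2(FPKM + 0.1). With 1 library left out KLF13 ran from -0.14 to 0.21, KLF15 from -0.20 to 0.032, KLF16 from -0.15 to 0.15 and KLF3 from -0.044 to 0.27. The block also ended the calls of MKL1, CDKN1A and LONRF3. The labels do not say whether same-numbered libraries were made together, so the main fit did not pair them. Deviations of same-numbered libraries from their group means correlated at -0.43, -0.04 and -0.45 across genes. Differently numbered libraries ran from -0.31 (control library 2 with knockdown library 3) to 0.55 (control library 1 with knockdown library 3). The source of these correlations was not tested. KLF2 had the fewest reads, 5 to 37 per library, and the widest interval of the members, and the part of depth in that was not tested.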
